A study of Gallus gallus with 6 samples.

Results

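Solute carriers are membrane proteins that move amino acids, sugars, ions, metals, vitamins and metabolites across the cell surface and the membranes of organelles. In chicken neural crest cultures, 117 solute carrier genes were described across 6 arrays. They were chosen by 2 things, the platform annotation, which had to give a probe set a single symbol of the form SLC, number, A, number, and the level, which had to reach a log2 value of 4 on 3 or more arrays. Where a gene had several such probe sets, the one of highest mean stood for it. SLC24A5, SLC45A2, SLC25A37 and SLC40A1 were left out by name, so every count below holds without these 4 genes. The annotation gave such a symbol to 561 probe sets of 245 genes in 46 families, of which 206 probe sets were tested and 38 families had a member. Whole-series counts run over 16526 tested probe sets of 38439, or over 8571 genes with 1 probe set each. The measured values that chose the members were thus levels, whatever the group, and every member reached 4 on at least 1 array of each group. The genes were grouped into 11 substrate classes by family, and their names and roles are mostly known from mammals.

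The cultures called v-Myb here were neural crest cells of Brown Leghorn chickens in which a retrovirus expressed v-Myb-L3,4A-HAER, a v-Myb with a mutated leucine zipper region whose activity is switched on by 4-OH-tamoxifen. The cultures they were set against, called N118D, expressed v-Myb-L3,4A-N118D-HAER, which carries the same zipper mutation and a further point mutation in the DNA-binding domain. Each group had 3 arrays, given as biological replicates. Neural tubes of stage 10 to 13 HH embryos were explanted onto collagen with the virus, the explants were taken away after 3 days and the emigrated cells were kept. Both groups received 200 nM 4-OH-tamoxifen for 4 h, and untreated or uninfected cells were not analysed here, so a difference is one between 2 induced proteins. Nothing in the titles says if each replicate used its own pool of embryos, and p-values therefore cover only the spread between these cultures.

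Carriers coupled to sodium or protons use ion gradients to pull a solute uphill, while facilitative carriers and exchangers let solutes run down their own gradients or trade places. Most members of the SLC25 family sit in the inner mitochondrial membrane and pass nucleotides, phosphate, amino acids and cofactors in and out of the matrix. In pigment cells, carriers supply tyrosine and cystine for melanin and adjust the pH, calcium and metal content of melanosomes. In neurons and glia, other families clear transmitters or load them into vesicles.

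The values were log2 array levels, with medians of 3.08 to 3.11 per array. Of 14 melanocyte markers 13 were tested, all higher in v-Myb cultures and GPR143 under the minimum, and their mean level was 9.88, 10.83 and 10.12 on the v-Myb arrays against 9.68, 9.99 and 9.94 on the N118D arrays. Of 11 neural crest markers 9 were tested and 8 were higher in v-Myb cultures, with means of 9.15 to 9.70 against 9.12 to 9.29, while SOX9 and NGFR were under the minimum. Neuronal markers (7 of 10 tested) averaged 10.85, 9.12 and 8.80 on the v-Myb arrays against 9.58, 9.45 and 9.92 on the N118D arrays. Epithelial markers (10 of 19 tested, 9 of them lower) averaged 9.19, 7.64 and 8.26 against 9.14, 9.45 and 9.07. Glial markers (3 of 6) averaged 11.19 to 11.52 against 11.46 to 11.58, mesenchymal markers (11 of 11, all lower) 11.59 to 11.94 against 11.64 to 12.15, and neural tube markers (4 of 6) 7.14 to 9.15 against 7.79 to 8.72. Blood markers (2 of 7 tested) averaged 6.66 to 6.87 against 6.50 to 6.83. The part of these cell types in the carrier results was not tested. In such bulk RNA, fewer cells of a type and less RNA per cell cannot be told apart.

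No solute carrier gene passed the test of a difference between v-Myb and N118D cultures. In limma, 0 of 117 had an adjusted p under 0.05, as had 0% of all tested probe sets, and every member's adjusted p was 0.9999. An unadjusted p under 0.05 was reached by 0 members, against 1.91% of all tested probe sets, and the smallest, 0.059, belonged to the zinc carrier SLC30A4. No carrier differed by 1.5-fold, which is 0.58 on the log2 scale, while 0.303% of all tested probe sets were at least that much higher in v-Myb cultures and 0.992% at least that much lower. The differences, v-Myb minus N118D, ran from -0.58 for the glutamate carrier SLC1A3 to 0.45 for the mitochondrial SLC25A43. The median size of a difference was 0.083, against a median standard error of 0.13. Below, a value with an SE is such a difference from limma on the log2 scale, and the value given for a further probe set of a gene is its difference.

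More of the carriers lay above 0 than below. 77 of 117 members (65.8%) were higher in v-Myb cultures, against 49.2% of all tested probe sets, and 40 were lower. Their median difference was 0.05, against -0.0018 over all tested probe sets. With each array left out in turn, between 69 and 79 members were higher and the median ran between 0.03, without v-Myb 2, and 0.07, without v-Myb 1. The sign of 52 members held through every such omission, 37 of them higher and 15 lower, and 65 members changed sign at least once. Correlated genes on 6 shared arrays are not independent, so the share above 0 has no test here.

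In 7 carriers the groups did not overlap and the v-Myb arrays were the higher ones, which was also so for 2.69% of all tested probe sets. These were SLC24A4, SLC30A4, SLC48A1, SLC25A14, SLC25A15, SLC25A16 and SLC25A22. The reverse order held for 0 carriers and for 3.05% of all tested probe sets. With fewer arrays the groups separate more easily: without v-Myb 1, 36 members did not overlap, 28 higher and 8 lower, where 11.8% and 13.3% of all tested probe sets did so. Without v-Myb 3 the count was 22, of which 16 were higher and 6 lower, against 7.97% and 8.56% of all tested probe sets. Without N118D 1 it was 17, 12 higher and 5 lower (8.08% and 6.49%). Leaving out N118D 2 gave 16, 9 higher and 7 lower (5.02% and 6.15%), and leaving out N118D 3 gave 12, 10 higher and 2 lower (5.14% and 7.13%). Leaving out v-Myb 2 gave the fewest, 9, of which 8 were higher and 1 lower (4.37% and 5.49%). Without v-Myb 1, 8 members differed by at least 1.5-fold, against 4.79% of all tested probe sets, and 10 had an unadjusted p under 0.05, against 7.3%. Leaving out any other array gave at most 3 members of 1.5-fold, against 1.04% to 2.25% of all tested probe sets, and at most 2 with such a p, against 1.06% to 3.42%.

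**Figure D1:**
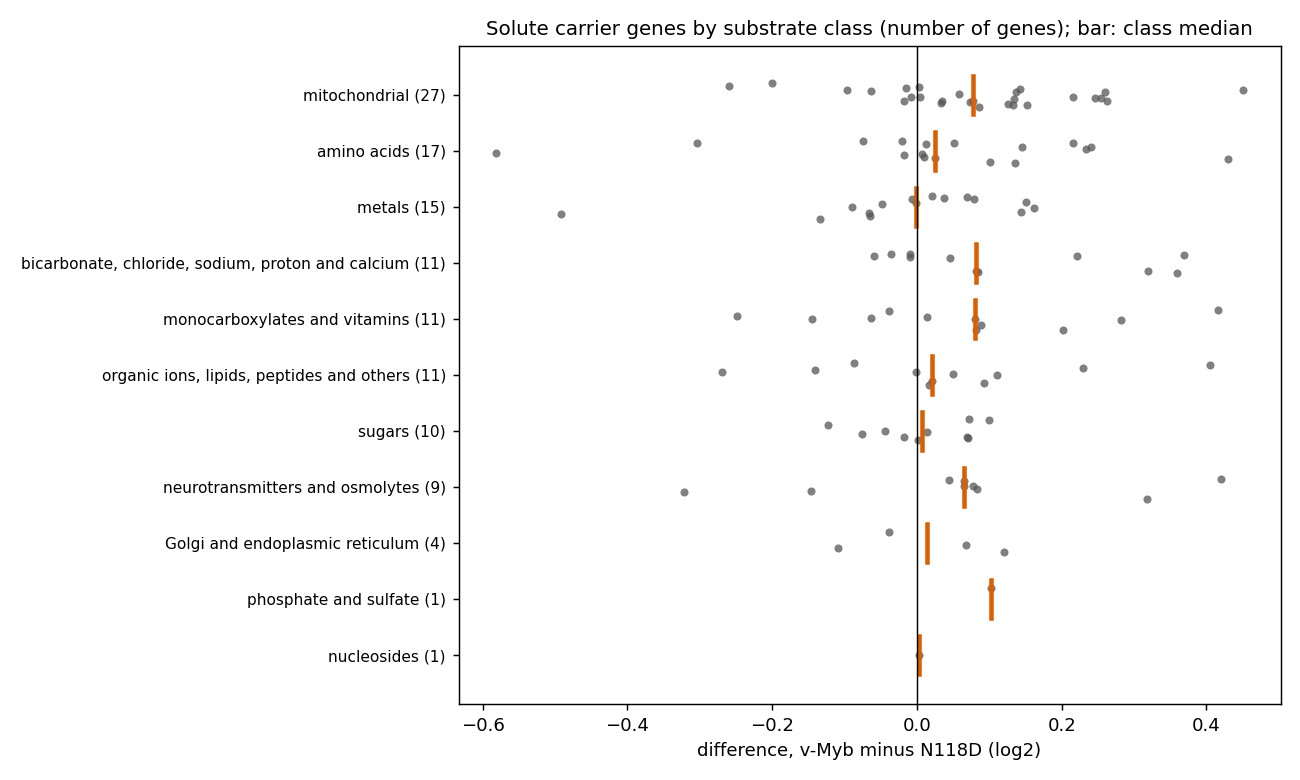
Differences of the 117 solute carrier genes, v-Myb minus N118D in log2 units, by substrate class with the number of genes in brackets. Each point is a gene and each orange bar a class median; class medians lie between -0.0012 (metals) and 0.10 (phosphate, 1 gene).

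**Figure D2:**
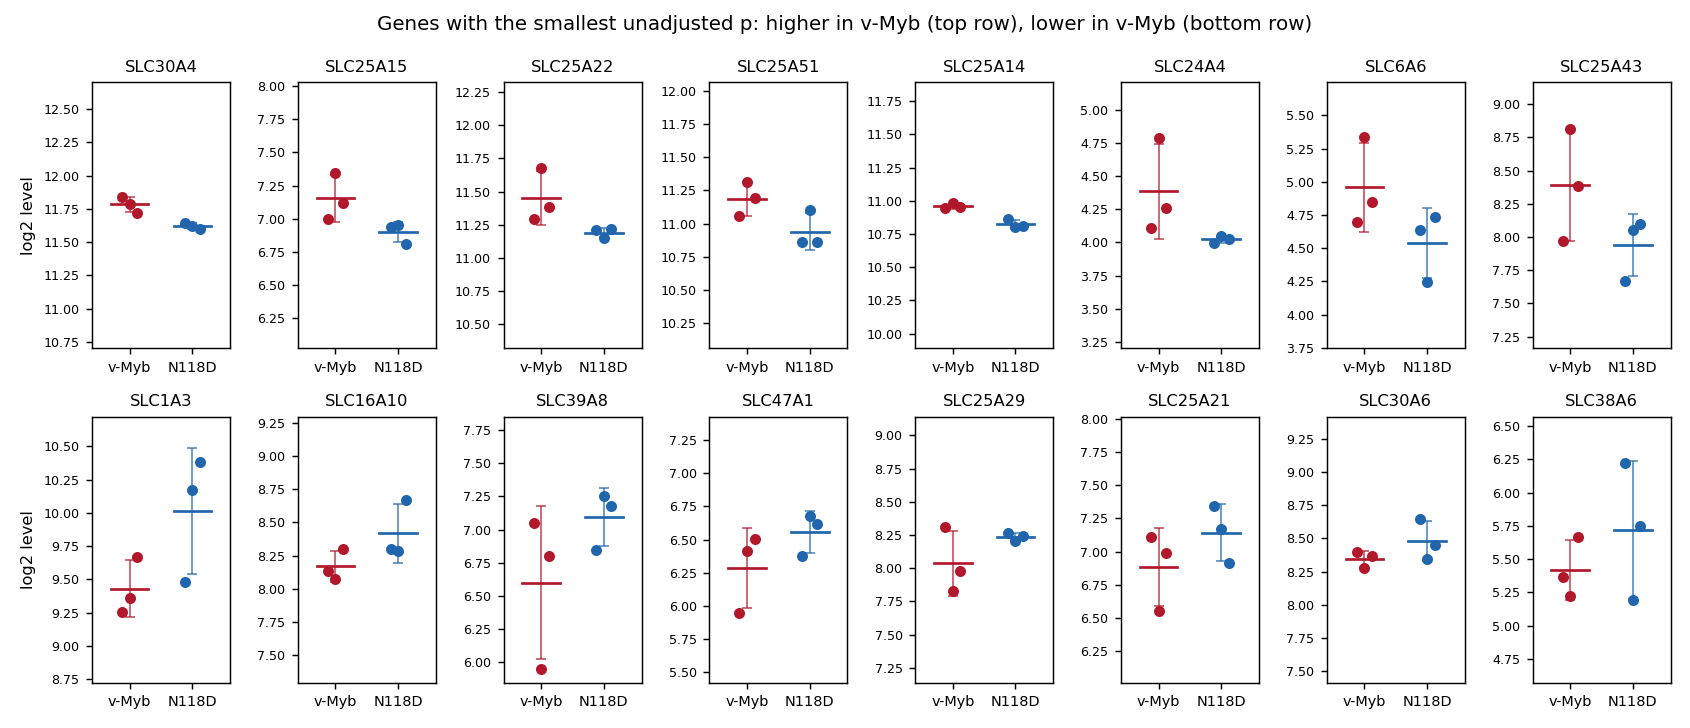
Log2 levels of the 8 higher (top) and the 8 lower carriers (bottom) with the smallest unadjusted p, v-Myb arrays in red left of N118D arrays in blue; points are arrays, lines means and bars the SD of 3 arrays, and every panel spans the same log2 height. All panels of the bottom row overlap between the groups, as do SLC25A51, SLC6A6 and SLC25A43 in the top row.

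Amino acid carriers (17 of 32 annotated genes) were higher in v-Myb cultures in 12 cases and lower in 5, with a median difference of 0.026 and the widest spread of any class, from -0.58 to 0.43. The median was 0.0045 without v-Myb 3, with 9 higher and 8 lower, and 0.066 without v-Myb 1, with 11 higher and 6 lower. SLC1A3 takes up glutamate and aspartate in astrocytes and radial glia of mammals. Its log2 levels were 9.26, 9.36 and 9.67 on the v-Myb arrays, against 9.48, 10.17 and 10.39 on the N118D arrays. N118D 1 was the lowest of its group and lay within the v-Myb range, so the groups overlapped. SLC1A3 averaged 9.43 ± 0.21 on the v-Myb arrays and 10.01 ± 0.47 on the N118D arrays (SD, n = 3 each). The difference of -0.58 ± 0.26 (SE, unadjusted p = 0.064) had a 95% confidence interval of -1.21 to 0.047, and its only further probe set gave a difference of -0.56. It stayed below 0 with each array left out, at -0.85 to -0.40.

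SLC38A1 and SLC38A2 bring glutamine and other neutral amino acids into the cell with sodium, and SLC38A2 is induced by amino acid shortage in mammals. SLC38A1 levels were 12.58, 12.37 and 12.35 on the v-Myb arrays, against 12.64, 12.34 and 12.29 on the N118D arrays. The highest were the arrays numbered 1 of both groups, and the difference was 0.013 ± 0.13 (SE). SLC38A2 levels were 11.35, 11.46 and 11.50 on the v-Myb arrays, against 11.28, 11.55 and 11.41 on the N118D arrays, with the groups interleaved and a difference of 0.026 ± 0.096 (SE). SLC38A10, a relative with a less settled substrate, gave 10.59, 10.95 and 10.91 on the v-Myb arrays, against 10.72, 10.79 and 10.79 on the N118D arrays. Its lowest array was v-Myb 1, and the difference was 0.052 ± 0.12 (SE).

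SLC38A11, a little studied member of the same family, had one of the widest ranges over the arrays. Its levels were 6.23, 7.93 and 7.44 on the v-Myb arrays, against 6.28, 7.19 and 6.83 on the N118D arrays. Low on the arrays numbered 1 and highest on v-Myb 2, it differed by 0.43 ± 0.47 (SE, unadjusted p = 0.4), with an interval of -0.74 to 1.60. This difference was 0.065 without v-Myb 2 and 0.91 without v-Myb 1. SLC38A6 was the SLC38 gene that was lower in v-Myb cultures, at 5.36, 5.22 and 5.66 on the v-Myb arrays, against 6.23, 5.19 and 5.75 on the N118D arrays. N118D 1 was the highest array and N118D 2 the lowest, so the N118D arrays enclosed all v-Myb arrays, and the difference was -0.30 ± 0.28 (SE), at -0.57 without N118D 2 and -0.051 without N118D 1.

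SLC7A5 is the light subunit of the exchanger that imports leucine, phenylalanine and tyrosine. Its levels were 9.63, 10.04 and 9.88 on the v-Myb arrays, against 9.42, 9.72 and 9.76 on the N118D arrays. N118D 1 was the lowest and v-Myb 2 the highest, and v-Myb 1 lay among the N118D arrays. The difference was 0.21 ± 0.15 (SE, unadjusted p = 0.19) and ran from 0.11 to 0.32 with each array left out, but the further probe set gave only 0.022. SLC3A2, its heavy subunit, and SLC1A5, a glutamine carrier, had no probe set with that symbol alone. SLC7A11, the cystine and glutamate exchanger that supplies pheomelanin synthesis in mice, was annotated but stayed under the minimum. SLC7A3, a cationic amino acid carrier, gave 10.26, 10.67 and 10.69 on the v-Myb arrays, against 10.27, 10.59 and 10.32 on the N118D arrays and a difference of 0.14 ± 0.15 (SE). SLC36A1, which exports amino acids from lysosomes with protons, gave 7.11, 7.73 and 7.55 on the v-Myb arrays, against 6.63, 7.62 and 7.40 on the N118D arrays. N118D 1 was the lowest array by a wide gap and the difference, 0.24 ± 0.30 (SE), became -0.051 without it.

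Carriers of neurotransmitters and osmolytes (9 of 21 annotated) were higher in 7 cases and lower in 2, with a median of 0.065 that was 0.045 without v-Myb 3 and 0.13 without v-Myb 1. All 4 members of the SLC6 family, which couple uptake to sodium and in most cases also to chloride, were higher. SLC6A6 takes up taurine, an osmolyte. Its levels were 4.69, 5.33 and 4.85 on the v-Myb arrays, against 4.63, 4.24 and 4.74 on the N118D arrays. N118D 2 was the lowest array and v-Myb 2 the highest, and v-Myb 1 lay among the N118D arrays. The difference was 0.42 ± 0.21 (SE, unadjusted p = 0.096) and stayed above 0 with each array left out, at 0.23 to 0.55. The further probe set of SLC6A6 gave 0.031. Mean levels of the chosen and the further probe set, 4.75 and 4.12, were not far above the minimum of 4. SLC6A15 imports branched-chain amino acids and proline in the mammalian brain. Its levels were 11.17, 12.26 and 11.86 on the v-Myb arrays, against 10.89, 11.81 and 11.64 on the N118D arrays. The lowest arrays were those numbered 1 and the highest was v-Myb 2. The difference was 0.32 ± 0.36 (SE, unadjusted p = 0.41). It was 0.039 without N118D 1 and 0.62 without v-Myb 1. On 3 further probe sets it was 0.42 to 0.44, with SEs of 0.39 to 0.54. The dimmest of them averaged 4.01, at the minimum. SLC6A9, a glycine carrier, gave 0.077 ± 0.086 (SE) and SLC6A8, the creatine carrier, gave 0.083 ± 0.090 (SE).

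A pair of vesicular carriers had the widest ranges of all members. SLC32A1 loads GABA and glycine into synaptic vesicles. Its levels were 6.34, 3.31 and 3.11 on the v-Myb arrays, against 4.14, 4.31 and 5.28 on the N118D arrays. v-Myb 1 was the highest array and the other v-Myb arrays were the lowest, below the minimum of 4, so the v-Myb arrays enclosed all N118D arrays. The difference of -0.32 ± 0.91 (SE) was -1.36 without v-Myb 1 and 0.25 without v-Myb 3. SLC18A3 loads acetylcholine into synaptic vesicles, and its levels were 7.53, 4.92 and 4.67 on the v-Myb arrays, against 4.62, 5.77 and 6.60 on the N118D arrays. Here too v-Myb 1 was the highest, and the difference of 0.044 ± 0.89 (SE) became -0.87 without it. Neuronal markers were highest on the same array, and their part in these results was not tested. SLC17A5, which exports sialic acid from lysosomes, gave 10.63, 10.96 and 10.95 on the v-Myb arrays, against 10.84, 10.76 and 10.74 on the N118D arrays, with v-Myb 1 the lowest array and a difference of 0.065 ± 0.11 (SE).

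Sugar carriers (10 of 27 annotated) were close to even, 6 higher and 4 lower, with a median difference of 0.0074, which turned to -0.028 without N118D 2 and -0.0045 without v-Myb 3, and no difference beyond 0.12 in size. SLC2A1 is the general glucose carrier of embryonic and dividing cells. Its levels were 12.58, 12.27 and 12.19 on the v-Myb arrays, against 12.32, 12.25 and 12.44 on the N118D arrays. v-Myb 1 was the highest array and v-Myb 3 the lowest, so the v-Myb arrays enclosed all others, and the difference was 0.014 ± 0.12 (SE) with an interval of -0.29 to 0.32. SLC2A8, an intracellular hexose carrier, gave 9.72, 9.73 and 9.64 on the v-Myb arrays, against 9.72, 9.64 and 9.72 on the N118D arrays. Its arrays lay within 0.096 of each other, and the difference was 0.00077 ± 0.071 (SE). SLC2A14, a name given in humans to a close relative of SLC2A3, gave a difference of -0.018 ± 0.12 (SE), and SLC2A3 itself had no probe set with that symbol alone. SLC37A1, a glucose-6-phosphate and phosphate exchanger of the endoplasmic reticulum, gave -0.12 ± 0.15 (SE), the furthest from 0 of the class. SLC37A3, a lysosomal relative, gave 9.86, 10.33 and 10.53 on the v-Myb arrays, against 10.14, 10.47 and 10.24 on the N118D arrays and a difference of -0.044 ± 0.19 (SE). None of the 9 annotated SLC5 genes, the sodium-coupled sugar carriers, met the level rule.

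Monocarboxylate and vitamin carriers (11 of 22 annotated) were higher in 7 cases and lower in 4, with a median of 0.080 that became -0.021 without v-Myb 1 and -0.015 without N118D 2. SLC16A1 moves lactate and pyruvate with protons. Its levels were 10.09, 10.56 and 10.51 on the v-Myb arrays, against 9.91, 10.37 and 10.28 on the N118D arrays. The arrays numbered 1 were the lowest of each group, and the difference was 0.20 ± 0.18 (SE), at 0.064 without N118D 1 and 0.35 without v-Myb 1. SLC16A3, which exports lactate from glycolytic cells, had the opposite order, with levels of 10.35, 9.63 and 9.68 on the v-Myb arrays, against 10.19, 9.87 and 9.79 on the N118D arrays. Both arrays numbered 1 were the highest, and the difference of -0.064 ± 0.23 (SE) ran from -0.30 to 0.065 with each array left out. SLC16A7, a high-affinity lactate and pyruvate carrier, gave 8.27, 9.28 and 7.69 on the v-Myb arrays, against 8.11, 8.21 and 8.09 on the N118D arrays. v-Myb 2 alone was high, and the difference of 0.28 ± 0.39 (SE) became -0.15 without it.

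SLC16A10 carries aromatic amino acids, tyrosine among them, out of cells. Its levels were 8.13, 8.07 and 8.30 on the v-Myb arrays, against 8.30, 8.28 and 8.67 on the N118D arrays. v-Myb 3 lay above N118D 2, so the groups overlapped. The difference was -0.25 ± 0.13 (SE, unadjusted p = 0.11), and it was negative with each array left out, at -0.32 to -0.12. Its further probe sets gave smaller differences, -0.098, -0.017 and, near the minimum, 0.088. The mean of all its probe sets gave -0.069. SLC16A12, a creatine carrier in mammals, gave 5.48, 5.78 and 6.48 on the v-Myb arrays, against 5.63, 5.25 and 5.61 on the N118D arrays. v-Myb 3 was the highest array, and v-Myb 1 lay among the N118D arrays. The difference was 0.42 ± 0.27 (SE, unadjusted p = 0.18), at 0.13 without v-Myb 3 and 0.63 without v-Myb 1. Of the vitamin carriers, SLC23A2, which takes up ascorbate, gave 0.089 ± 0.086 (SE) and SLC19A1, which takes up reduced folate, gave 0.013 ± 0.10 (SE). SLC16A9, a carnitine carrier in humans, gave 8.02, 7.12 and 6.92 on the v-Myb arrays, against 7.60, 6.91 and 7.30 on the N118D arrays, with both arrays numbered 1 the highest and a difference of 0.081 ± 0.33 (SE).

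Carriers of bicarbonate, chloride, sodium, protons and calcium (11 of 41 annotated) were higher in 7 cases and lower in 4, with a median of 0.082 that was 0.047 without N118D 1 and 0.11 without v-Myb 3. SLC24A4 is a potassium-dependent sodium-calcium exchanger, and variants near it are associated with hair and eye colour in humans. Its levels were 4.11, 4.79 and 4.26 on the v-Myb arrays, against 3.997, 4.05 and 4.03 on the N118D arrays. No v-Myb array was as low as any N118D array, v-Myb 2 standing out by far the most, while the N118D arrays sat at the minimum. The difference was 0.36 ± 0.18 (SE, unadjusted p = 0.096), with an interval of -0.086 to 0.80, and was 0.16 without v-Myb 2. SLC24A2, a relative found in neurons and cones, gave 5.10, 4.06 and 4.06 on the v-Myb arrays, against 4.09, 4.09 and 4.08 on the N118D arrays. v-Myb 1 alone was high and the other 5 arrays lay between 4.06 and 4.09, and the difference of 0.32 ± 0.29 (SE) became -0.028 without it. SLC9A7, a sodium-proton exchanger of the trans-Golgi network, gave 8.58, 9.38 and 9.33 on the v-Myb arrays, against 8.25, 8.93 and 8.996 on the N118D arrays. Its lowest levels were on the arrays numbered 1, and the difference was 0.37 ± 0.30 (SE, unadjusted p = 0.26), with an interval of -0.37 to 1.10, and was 0.13 without N118D 1 and 0.63 without v-Myb 1.

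SLC9A8, an exchanger of the Golgi apparatus, gave a difference of 0.046 ± 0.094 (SE). SLC12A2 brings sodium, potassium and chloride into the cell, and its levels were 9.47, 9.58 and 9.55 on the v-Myb arrays, against 9.64, 9.54 and 9.59 on the N118D arrays. The groups overlapped, and the difference of -0.059 ± 0.071 (SE) stayed below 0 with each array left out, at -0.083 to -0.029. SLC4A7 imports sodium with bicarbonate, and gave 11.03, 11.01 and 10.88 on the v-Myb arrays, against 10.88, 10.89 and 10.91 on the N118D arrays with a difference of 0.085 ± 0.074 (SE). v-Myb 3 was at the level of the N118D arrays, so the groups were not separate. SLC12A7, a potassium-chloride exporter, gave a difference of 0.22 ± 0.21 (SE), while its further probe set gave -0.19 and the mean of both 0.016. The difference was 0.014 without N118D 1 and 0.39 without N118D 3. Its relative SLC12A4 gave 0.082 ± 0.13 (SE).

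Metal carriers (15 of 24 annotated) split close to evenly, 7 higher and 8 lower, with a median of -0.0012 that became 0.0026 after quantile normalization and 0.011 after median centring. Without v-Myb 3 the metal carriers were 5 higher and 10 lower with a median of -0.038, and without v-Myb 1 they were 9 higher and 6 lower with a median of 0.071. SLC30A4 moves zinc into vesicles and, in mice, into milk. Its levels were 11.84, 11.79 and 11.72 on the v-Myb arrays, against 11.64, 11.62 and 11.60 on the N118D arrays. The 3 v-Myb arrays were all above the 3 N118D arrays. SLC30A4 averaged 11.78 ± 0.060 on the v-Myb arrays and 11.62 ± 0.021 on the N118D arrays (SD, n = 3 each). The difference was 0.16 ± 0.069 (SE, unadjusted p = 0.059), with an interval of -0.0085 to 0.33. It stayed at 0.13 to 0.19 with each array left out. On the further probe set the groups overlapped, and the difference was 0.031. SLC30A5 and SLC30A6 form a complex that loads zinc into the secretory pathway. SLC30A5 levels were 11.80, 11.77 and 11.70 on the v-Myb arrays, against 11.99, 11.80 and 11.67 on the N118D arrays, with the groups interleaved and a difference of -0.066 ± 0.10 (SE). SLC30A6 gave 8.40, 8.28 and 8.37 on the v-Myb arrays, against 8.64, 8.35 and 8.45 on the N118D arrays. N118D 1 was the highest array, N118D 2 lay among the v-Myb arrays, and the difference was -0.13 ± 0.099 (SE). SLC30A1, the zinc exporter of the cell surface, gave 8.31, 8.49 and 8.62 on the v-Myb arrays, against 8.47, 8.47 and 8.37 on the N118D arrays and a difference of 0.037 ± 0.10 (SE). The further probe set of SLC30A1 gave -0.10. SLC30A9, a zinc carrier of mitochondria, gave 7.55, 7.22 and 6.62 on the v-Myb arrays, against 7.57, 6.93 and 6.88 on the N118D arrays. The arrays numbered 1 were the highest, and the difference was -0.0012 ± 0.30 (SE).

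Among the importers, SLC39A8 takes up zinc and manganese. Its levels were 7.05, 5.95 and 6.80 on the v-Myb arrays, against 6.85, 7.25 and 7.18 on the N118D arrays. v-Myb 2 was far below all other arrays, and v-Myb 1 lay among the N118D arrays. The difference was -0.49 ± 0.30 (SE, unadjusted p = 0.15) with an interval of -1.23 to 0.25, and it was -0.17 without v-Myb 2. Its further probe set had levels of 2.695 to 4.59, around the minimum of 4, and gave -0.31 ± 0.47 (SE). SLC39A13, a zinc carrier of the early secretory pathway, gave 10.27, 10.53 and 10.69 on the v-Myb arrays, against 10.40, 10.53 and 10.49 on the N118D arrays and a difference of 0.021 ± 0.12 (SE). On the further probe set of SLC39A13 the difference was -0.17 ± 0.19 (SE). SLC39A9, which sits in the Golgi apparatus and at the cell surface, gave 9.49, 10.50 and 10.39 on the v-Myb arrays, against 9.69, 10.44 and 10.39 on the N118D arrays. Both arrays numbered 1 were the lowest, and the difference of -0.048 ± 0.34 (SE) became 0.27 without v-Myb 1. SLC31A1, the copper importer, gave 10.07, 10.46 and 10.06 on the v-Myb arrays, against 9.99, 10.03 and 10.12 on the N118D arrays. v-Myb 2 alone was high, the difference was 0.15 ± 0.13 (SE), and 5 further probe sets gave 0.10 to 0.33, but it was 0.019 without v-Myb 2. SLC41A2, a magnesium carrier, gave a difference of -0.090 ± 0.14 (SE).

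Phosphate and sulfate carriers had 1 member of 9 annotated genes. SLC20A2 takes up phosphate with sodium, and its levels were 7.79, 9.05 and 8.87 on the v-Myb arrays, against 7.78, 8.71 and 8.91 on the N118D arrays. The arrays numbered 1 of both groups were well below the other 4, and the difference between the groups was 0.10 ± 0.44 (SE). SLC20A1, the other member of its family, stayed under the minimum.

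SLC25 carriers, placed in the mitochondrial class by family alone, formed the largest class, 27 of 32 annotated genes. 20 were higher in v-Myb cultures and 7 lower, with a median difference of 0.077. With each array left out, the count of higher genes ran between 16 and 22 and the median between 0.033, without v-Myb 2, and 0.12, without v-Myb 1, and quantile normalization gave 19 and median centring 21. In 4 of the 27 the groups did not overlap and the v-Myb arrays were higher, as in 2.69% of all tested probe sets, and 0 were lower without overlap, against 3.05%. SLC25A22 brings glutamate into the matrix. Its levels were 11.29, 11.68 and 11.38 on the v-Myb arrays, against 11.21, 11.15 and 11.22 on the N118D arrays. Every v-Myb array was above every N118D array, v-Myb 2 the most. The difference was 0.26 ± 0.12 (SE, unadjusted p = 0.065), with an interval of -0.023 to 0.54, and was 0.15 without v-Myb 2 and 0.34 without v-Myb 1. SLC25A15 exchanges ornithine and citrulline for the urea cycle in mammals. Its levels were 6.998, 7.34 and 7.12 on the v-Myb arrays, against 6.94, 6.95 and 6.81 on the N118D arrays. The gap between the groups was narrow, with v-Myb 1 just above N118D 2. The difference was 0.25 ± 0.11 (SE, unadjusted p = 0.062). It was 0.16 without v-Myb 2 and 0.33 without v-Myb 1. The further probe set of SLC25A15 gave 0.30, with the groups overlapping. SLC25A14, a relative of the uncoupling proteins, gave 10.95, 10.98 and 10.95 on the v-Myb arrays, against 10.86, 10.80 and 10.81 on the N118D arrays. The v-Myb arrays lay close together, all above the N118D arrays. SLC25A14 averaged 10.96 ± 0.018 on the v-Myb arrays and 10.82 ± 0.032 on the N118D arrays (SD, n = 3 each). The difference was 0.14 ± 0.065 (SE, unadjusted p = 0.079), with a range of 0.13 to 0.16 with each array left out. A further probe set gave 0.15 ± 0.21 (SE), with the N118D arrays enclosing all v-Myb arrays. SLC25A16, linked to coenzyme A in mitochondria, gave 9.67, 9.68 and 9.65 on the v-Myb arrays, against 9.63, 9.56 and 9.37 on the N118D arrays. The groups were separate by a narrow margin, and the difference was 0.14 ± 0.088 (SE, unadjusted p = 0.16). Its further probe set gave 0.061, with the N118D arrays inside the v-Myb range.

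SLC25A51 imports NAD into mitochondria in human cells. Its levels were 11.06, 11.31 and 11.19 on the v-Myb arrays, against 10.86, 11.10 and 10.86 on the N118D arrays. N118D 2 lay within the v-Myb range, and the difference was 0.25 ± 0.11 (SE, unadjusted p = 0.066). SLC25A43, a carrier with no settled substrate, had the highest difference of all members. It gave 7.97, 8.81 and 8.39 on the v-Myb arrays, against 7.67, 8.05 and 8.10 on the N118D arrays. v-Myb 2 was the highest and N118D 1 the lowest, while v-Myb 1 lay among the N118D arrays. The difference was 0.45 ± 0.24 (SE, unadjusted p = 0.11), with an interval of -0.13 to 1.04, and was 0.24 without v-Myb 2 and 0.66 without v-Myb 1. On the lower side, SLC25A21 carries oxodicarboxylates of lysine and tryptophan breakdown. Its levels were 7.11, 6.55 and 6.99 on the v-Myb arrays, against 7.34, 7.17 and 6.91 on the N118D arrays. v-Myb 2 was the lowest array, the groups overlapped, and the difference was -0.26 ± 0.18 (SE, unadjusted p = 0.21), at -0.37 without N118D 3 and -0.094 without v-Myb 2. SLC25A29, a carrier of basic amino acids, gave 8.31, 7.83 and 7.98 on the v-Myb arrays, against 8.26, 8.21 and 8.24 on the N118D arrays. The N118D arrays lay close together and inside the v-Myb range, and the difference was -0.20 ± 0.13 (SE, unadjusted p = 0.18), at -0.34 without v-Myb 1 and -0.096 without v-Myb 2.

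The core carriers of oxidative phosphorylation differed by up to 0.085 in size on their chosen probe sets. The median size over all members was 0.083. SLC25A3 brings phosphate into the matrix, and SLC25A4, SLC25A5 and SLC25A6 exchange ADP for ATP. SLC25A3 levels were 13.97, 14.12 and 13.98 on the v-Myb arrays, against 14.02, 13.96 and 13.996 on the N118D arrays, a difference of 0.033 ± 0.075 (SE). SLC25A6 gave 14.98, 15.10 and 14.99 on the v-Myb arrays, against 14.93, 15.03 and 15.001 on the N118D arrays, a difference of 0.034 ± 0.074 (SE). The further probe set of SLC25A6 gave 0.088 ± 0.12 (SE). SLC25A5 gave 12.83, 13.09 and 12.80 on the v-Myb arrays, against 12.82, 12.82 and 12.82 on the N118D arrays. Here v-Myb 2 alone was high, and the difference was 0.085 ± 0.098 (SE). SLC25A4 gave 10.51, 10.69 and 10.56 on the v-Myb arrays, against 10.64, 10.65 and 10.49 on the N118D arrays and a difference of -0.0088 ± 0.088 (SE). Their 95% confidence intervals, -0.15 to 0.22, -0.15 to 0.22, -0.16 to 0.33 and -0.23 to 0.21 in that order, all include 0 and lie within the 1.5-fold limit. SLC25A13, the aspartate and glutamate exchanger of the malate-aspartate shuttle, gave 12.52, 12.70 and 12.34 on the v-Myb arrays, against 12.44, 12.34 and 12.39 on the N118D arrays and a difference of 0.13 ± 0.11 (SE). SLC25A25, which exchanges ATP-magnesium for phosphate, gave 5.70, 6.14 and 6.53 on the v-Myb arrays, against 5.61, 6.35 and 6.01 on the N118D arrays. The array numbered 1 was the lowest of each group, and the difference was 0.13 ± 0.27 (SE).

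**Figure D3:**
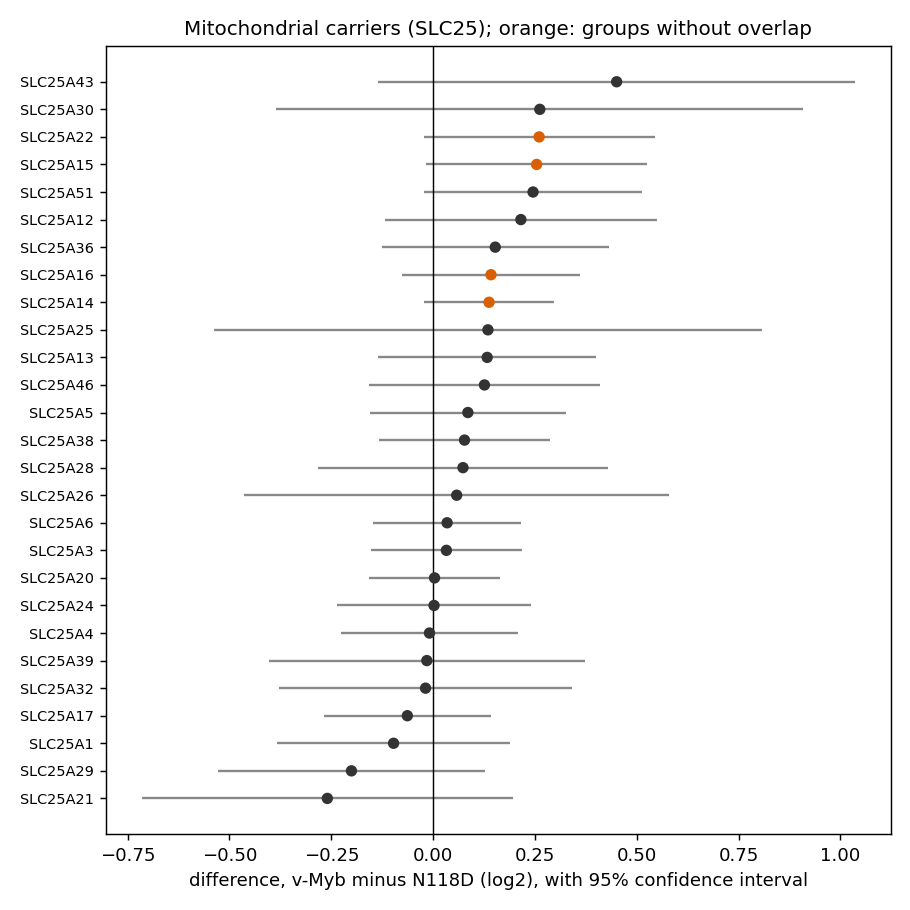
Differences of the 27 SLC25 carriers, classed as mitochondrial by family, v-Myb minus N118D in log2 units, as points with 95% confidence intervals from limma. Orange points are the 4 genes without overlap between the groups, an order found in 2.69% of all tested probe sets. Every interval crosses 0, and 20 of the 27 points lie above it.

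Golgi and endoplasmic reticulum carriers (4 of 5 annotated) were 2 higher and 2 lower, with a median of 0.015 that became -0.019 without v-Myb 2. SLC33A1 brings acetyl-CoA into the endoplasmic reticulum and gave 9.48, 9.71 and 9.50 on the v-Myb arrays, against 9.53, 9.42 and 9.38 on the N118D arrays, a difference of 0.12 ± 0.095 (SE). SLC35A1 brings CMP-sialic acid into the Golgi apparatus and gave 9.05, 9.64 and 9.52 on the v-Myb arrays, against 9.25, 9.55 and 9.53 on the N118D arrays. Both arrays numbered 1 were the lowest, and the difference was -0.039 ± 0.18 (SE). SLC35A3, for UDP-N-acetylglucosamine, gave -0.11 ± 0.13 (SE), and its relative SLC35A4 gave 0.068 ± 0.12 (SE). SLC35B1, which stands outside the symbol rule, was under the minimum. The only nucleoside carrier among 5 annotated was SLC29A3, found in lysosomes and mitochondria, with levels of 7.14, 7.19 and 7.36 on the v-Myb arrays, against 7.19, 7.19 and 7.31 on the N118D arrays. Its difference was 0.0026 ± 0.091 (SE), while SLC29A1, the general nucleoside carrier of the cell surface, was under the minimum.

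Carriers of organic ions, lipids, peptides and other solutes (11 of 27 annotated) were 7 higher and 4 lower, with a median of 0.021 that became -0.030 without N118D 3. SLC48A1 carries heme out of endosomes and lysosomes. Its levels were 11.26, 12.05 and 11.29 on the v-Myb arrays, against 11.03, 11.23 and 11.12 on the N118D arrays. Every v-Myb array was above every N118D array, v-Myb 1 just above N118D 2 and v-Myb 2 by far the most. The difference was 0.40 ± 0.23 (SE, unadjusted p = 0.13), with an interval of -0.15 to 0.96, and it was 0.15 without v-Myb 2. SLC47A1, an exporter of organic cations, was lower, at 5.95, 6.41 and 6.50 on the v-Myb arrays, against 6.38, 6.68 and 6.62 on the N118D arrays. v-Myb 1 was the lowest array, the other v-Myb arrays lay within the N118D range, and the difference was -0.27 ± 0.17 (SE, unadjusted p = 0.17), at -0.38 without v-Myb 3 and -0.10 without v-Myb 1. SLC44A5, a relative of the choline carriers, gave 8.07, 8.06 and 7.59 on the v-Myb arrays, against 7.71, 7.66 and 7.67 on the N118D arrays. v-Myb 1 and v-Myb 2 were high and v-Myb 3 was the lowest array. The difference was 0.23 ± 0.15 (SE), and a further probe set near the minimum gave -0.15.

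SLC22A5, the carnitine carrier, gave 12.16, 12.26 and 12.07 on the v-Myb arrays, against 12.16, 11.91 and 12.14 on the N118D arrays and a difference of 0.092 ± 0.10 (SE). The further probe set of SLC22A5 gave -0.029. SLC44A1, which takes up choline, gave 9.73, 10.05 and 9.81 on the v-Myb arrays, against 9.93, 9.85 and 9.75 on the N118D arrays and a difference of 0.016 ± 0.11 (SE). For SLC27A4, a fatty acid carrier, the difference was 0.11 ± 0.11 (SE), while its further probe set gave -0.083. SLC10A7, a relative of the bile acid carriers, differed by 0.050 ± 0.097 (SE). SLC15A4, which exports histidine and peptides from lysosomes, gave 7.68, 6.89 and 6.57 on the v-Myb arrays, against 7.76, 6.58 and 6.73 on the N118D arrays. Both arrays numbered 1 stood well above the others, and the difference was 0.021 ± 0.41 (SE). SLC10A4, found in synaptic vesicles of mammals, gave 7.91, 6.85 and 7.44 on the v-Myb arrays, against 7.71, 7.45 and 7.46 on the N118D arrays. v-Myb 1 was the highest array and v-Myb 2 the lowest, and the difference was -0.14 ± 0.27 (SE).

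A list of 36 companion genes outside the symbol rule, which pair with the carriers or respond to their substrates, was read from the same fit. Of 20 tested, 10 were higher and 10 lower, with a median of -0.00098. An unadjusted p under 0.05 in limma was reached by 0, against 1.91% of all tested probe sets. Of the rest, 9 were under the minimum and 7 had no probe set of their own. EMB, a chaperone of SLC16 carriers, had levels of 6.67, 6.32 and 6.64 on the v-Myb arrays, against 7.43, 7.27 and 6.45 on the N118D arrays. Its difference was -0.51 ± 0.27 (SE, unadjusted p = 0.11), with N118D 3 inside the v-Myb range. BSG, the other chaperone, gave 0.077 ± 0.29 (SE). MT4, a metallothionein symbol for a metal-binding protein, gave 10.33, 10.01 and 10.59 on the v-Myb arrays, against 9.88, 11.35 and 11.81 on the N118D arrays. The N118D arrays spread widely and enclosed all v-Myb arrays, and the difference was -0.71 ± 0.50 (SE). MTF1, the factor that turns on zinc-response genes, gave 0.18 ± 0.13 (SE). ATF4, the factor of the amino acid response, gave 0.00033 ± 0.085 (SE). ATP1B1, a subunit of the sodium pump, gave -0.30 ± 0.33 (SE), and its relative ATP1B3 gave 0.071 ± 0.092 (SE). VDAC1, a channel of the outer mitochondrial membrane, gave -0.31 ± 0.26 (SE), while VDAC2 gave -0.036 and VDAC3 0.035. Of the others tested, SLCO4A1 differed by 0.048, SLCO5A1 by 0.042, ASNS by 0.084, CHAC1 by 0.051 and MPC2 by 0.11. VLDLR differed by -0.0023, HK1 by -0.028, MT3 by -0.22 and ATOX1 by -0.0065. SLCO2A1, a prostaglandin carrier, was the only companion of the 20 without overlap, with every v-Myb array lower, an order found in 3.05% of all tested probe sets. Its levels were 4.16, 4.13 and 4.003 on the v-Myb arrays, against 4.16, 4.18 and 4.18 on the N118D arrays. It was named after its values were seen, v-Myb 1 and N118D 1 were equal to 2 decimals, and the difference was -0.077 ± 0.074 (SE).

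Levels also varied between arrays of the same group. 46 of 117 carriers (39.3%) had their highest level on v-Myb 2, where 23.4% of all 8571 genes did. v-Myb 1 was the highest array for 19 carriers (16.2%, all genes 20.8%) and v-Myb 3 for 22 (18.8%, all genes 13.5%). N118D 1 was the highest for 17 (14.5%, all genes 26.9%). N118D 2 was so for 7 (5.98%, all genes 7.12%) and N118D 3 for 6 (5.13%, all genes 8.23%). In 24 carriers (20.5%, all genes 14.9%) the arrays numbered 1 of both groups were the 2 lowest, and in 16 (13.7%, all genes 20.6%) the 2 highest. The replicate number is not known to mark a shared culture day.

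**Figure D4:**
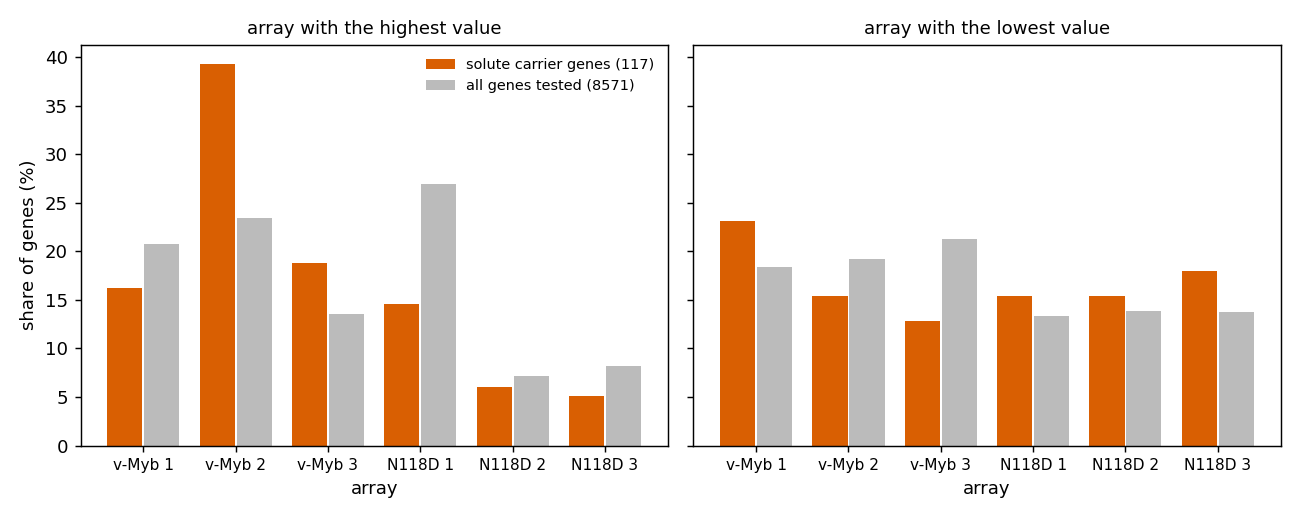
Share of genes (%) with their highest (left) and lowest level (right) on each of the 6 arrays, for the 117 solute carriers in orange and all 8571 genes in grey. v-Myb 2 held the highest level of 39.3% of the carriers and of 23.4% of all genes.

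Some carriers shared their order over the arrays with a marker list. These orders were chosen after the values were seen, so the sharing is a description. 14 carriers (11.97%, all genes 7.21%) were highest on v-Myb 2 and lowest on both arrays numbered 1, an order that 8 of 13 melanocyte markers also had. They were SLC6A15, SLC7A5, SLC9A7, SLC12A4, SLC12A7, SLC16A1, SLC20A2, SLC25A6, SLC25A43, SLC35A1, SLC36A1, SLC38A10, SLC38A11 and SLC39A9. Another 5 carriers (4.27%, all genes 6.06%), SLC10A4, SLC16A3, SLC24A2, SLC25A29 and SLC32A1, were highest on v-Myb 1 and lowest on v-Myb 2 and v-Myb 3, as were 6 of 7 neuronal markers. Neither order was confined to these marker lists. The neural crest markers FOXD3 and SNAI2 and the epithelial marker CDH3 had the order of the 14 carriers. PAX6 and HES5 of the neural tube list and FABP7 of the glial list had that of the 5 carriers. No other tested marker of the remaining lists had either order. Whether the cell types behind the markers account for these orders was not tested. Without both arrays numbered 1, the median difference of the members was 0.086, 83 were higher, and 48 did not overlap between the 2 arrays of each group, 34 higher and 14 lower, where 18.8% and 17.8% of all tested probe sets did so.

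**Figure D5:**
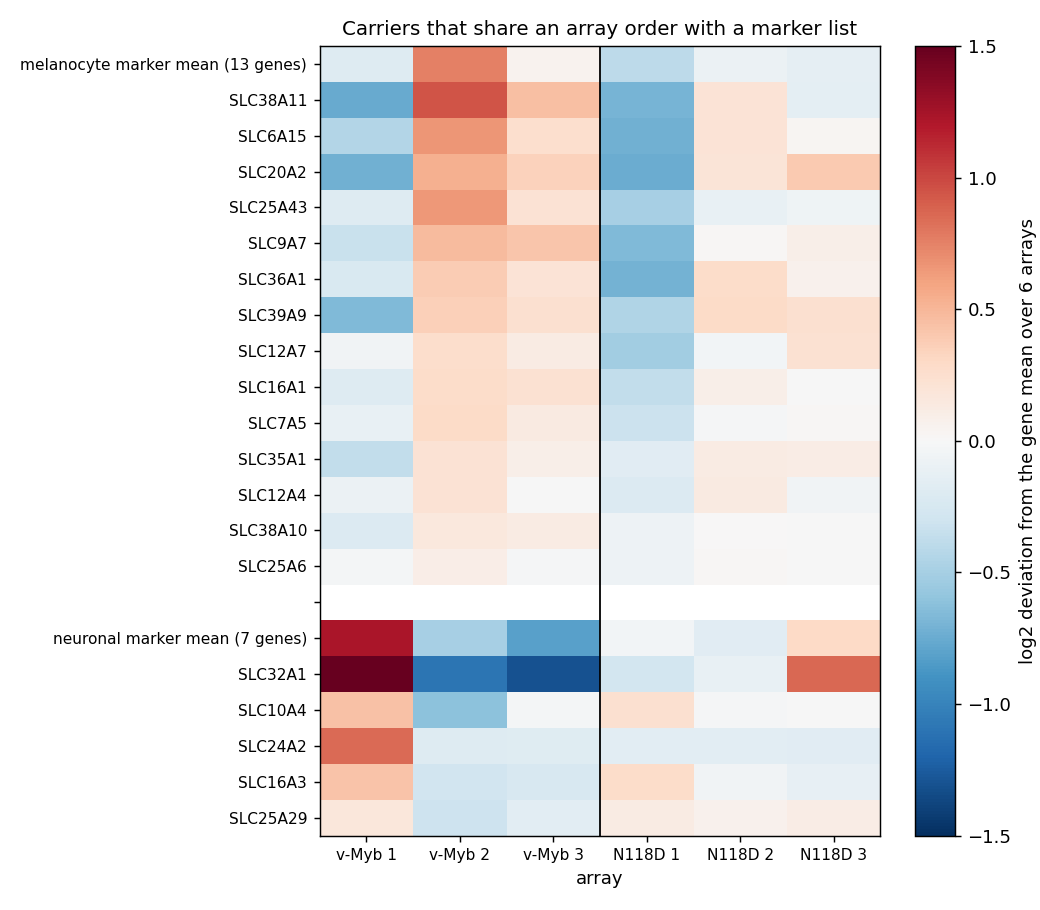
Log2 deviation of each gene from its mean over the 6 arrays, for the 14 carriers highest on v-Myb 2 and lowest on both arrays numbered 1, under the mean of 13 melanocyte markers, and the 5 carriers highest on v-Myb 1 and lowest on v-Myb 2 and 3, under the mean of 7 neuronal markers. Red is above and blue below the mean, the colour stops at 1.5 and SLC32A1 on v-Myb 1 lies beyond it, and the v-Myb arrays are left of the line.

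61 members had 89 further tested probe sets. 66 of these had the sign of the chosen probe set and 23 the other sign, the median gap between the differences was 0.078, and 0 had an unadjusted p under 0.05 in limma. Only SLC12A7, SLC16A10 and SLC44A5 had a further probe set of the other sign with a gap over 0.3, in each case one with levels near the minimum. At the minimum itself, the members just inside were SLC24A2, SLC24A4 and SLC32A1, which reached 4.09, 4.11 and 4.31 on 3 arrays. SLC16A6, SLC34A1 and SLC26A9 lay just outside, reaching 3.9957, 3.99 and 3.96 on 3 arrays. 115 members reached the minimum on all 6 arrays, SLC24A4 on 5 and SLC32A1 on 4.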

How the data were processed

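Log2 values per probe set and array were deposited by the authors, and GCRMA and Partek 6.4 are named per the submitters' processing notes. That method adjusts each probe for sequence-dependent background, quantile-normalizes the arrays and condenses a set's probes into 1 value. Per the labels' protocols, biotin-labelled aRNA was made from total RNA with a 3' in vitro transcription kit. The sources used here give neither the role of Partek nor the genome build of the array. The background step was not varied, as scanner files were not used here. No sequence is shown.

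Of 38535 probe sets, 96 controls and those without a log2 value of at least 4 on at least 3 arrays were left out. The comparison used limma 3.58.1 under R 4.3.3 (lmFit and eBayes, group as the only term, two-sided, Benjamini-Hochberg over all 16526 tested probe sets), checked on simulated data. With 3 arrays a group, 0.1 is the smallest p of an exact permutation test. Symbols came from the platform annotation, which assigned 1 symbol to 27178 probe sets, more than 1 to 177 and none to 11180, and 116 of 117 members had a gene ID in RefSeq's table, each with the same symbol. Levels of different probe sets were ranked to choose a gene's probe set and the genes to name, and were not otherwise compared.

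The members, classes, companion and marker lists were chosen with earlier results of these data known. Named were the 8 higher and 8 lower members of smallest unadjusted p, the 8 with the widest range, the 4 highest levels and the largest difference of each class, 3 neighbours on each side of the minimum, members whose further probe sets disagreed by over 0.3, and genes of known role. SLC25A16, SLC36A1, SLC39A9, SLC25A25, SLC15A4, SLC16A9, SLC10A4, SLC31A1, SLC30A9 and SLC12A4 were added after their values were seen. Alternatives were the filter, normalization, centring, variance model, array weights, replicate block, probe set choice and leaving out each array.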

Additional observations from a re-analysis of the deposited data

How the results depend on the processing

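No member reached an adjusted p under 0.05 in limma under any of 16 alternatives, the smallest being 0.5556. The median stayed above 0, with 65 of 97 members higher at a minimum of 6 and 69 to 83 of 117 in the other fits. Beside each count of members stands the share of all features tested in the same fit. Members with an unadjusted p under 0.05 numbered 2 with no filter on dim probe sets (1.91%), 1 with median centring (1.79%), 4 with a trended and robust variance (1.6%), 2 without moderation (1.89%), 11 with array weights (4.06%), 8 with the replicate block (4.03%) and 9 without both arrays numbered 1 (6.68%), an alternative chosen after seeing the data. With 1 array left out they numbered 0 to 10 (1.06% to 7.3%). Members of at least 1.5-fold numbered 4 with array weights (2.21%), 7 without both arrays numbered 1 (3.65%) and 0 to 8 with 1 array left out (1.04% to 4.79%). Members without overlap numbered 9 to 36 with 1 array left out (8 to 28 higher, against 4.37% to 11.8%, and 1 to 8 lower, against 5.49% to 13.3%), and 48 without both arrays numbered 1 (34 higher, 18.8%, and 14 lower, 17.8%, median difference 0.0859). Quantile normalization and the mean of all probe sets of a gene each gave 1 member that was lower without overlap (2.49% and 3.07% in that order). The replicate numbers are not known to mark a shared culture, so they were not taken to pair the arrays. Over all tested probe sets, the deviations of same-numbered arrays from their group means correlated at 0.401, 0.445 and -0.048. Those of v-Myb 3 and N118D 2 correlated at 0.421, and the other pairs of unlike number at -0.567 to 0.052. Deviations within a group sum to 0, so these correlations are not independent. For the 117 members alone, same-numbered arrays correlated at 0.10, 0.39 and -0.21. Whether equal numbers share a batch was not tested. The block moved no difference and no adjusted call.

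Of 76 genes named, 39 kept their sign with each array left out, but of these only SLC1A3, SLC25A14, SLC25A51 and SLC30A4 moved by less than 1.5 times and 35 by more. The differences of the other 37 ran over both signs: SLC10A7 -0.018 to 0.13, SLC16A3 -0.30 to 0.065, SLC16A7 -0.15 to 0.64, SLC18A3 -0.87 to 0.56, SLC19A1 -0.031 to 0.082, SLC20A2 -0.24 to 0.49, SLC24A2 -0.028 to 0.49, SLC25A3 -0.016 to 0.060, SLC25A4 -0.062 to 0.030, SLC25A5 -0.0053 to 0.14, SLC25A6 -0.0037 to 0.058, SLC29A3 -0.064 to 0.047, SLC2A1 -0.10 to 0.091, SLC2A14 -0.11 to 0.076, SLC2A8 -0.027 to 0.030, SLC30A1 -0.037 to 0.12, SLC30A5 -0.14 to 0.020, SLC32A1 -1.36 to 0.25, SLC35A1 -0.16 to 0.14, SLC35A4 -0.0045 to 0.15, SLC37A1 -0.24 to 0.026, SLC37A3 -0.19 to 0.14, SLC38A1 -0.061 to 0.12, SLC38A10 -0.017 to 0.17, SLC38A2 -0.042 to 0.094, SLC39A13 -0.075 to 0.14, SLC41A2 -0.22 to 0.0056, SLC44A1 -0.077 to 0.084, SLC9A8 -0.036 to 0.096, SLC36A1 -0.051 to 0.44, SLC39A9 -0.29 to 0.27, SLC25A25 -0.070 to 0.35, SLC15A4 -0.29 to 0.39, SLC16A9 -0.25 to 0.30, SLC10A4 -0.39 to 0.13, SLC30A9 -0.21 to 0.25 and SLC12A4 -0.0048 to 0.17. Without both arrays numbered 1 the sign turned for SLC18A3 (-1.39), SLC24A2 (-0.026), SLC25A4 (0.053), SLC2A1 (-0.11), SLC2A14 (0.14), SLC35A1 (0.041), SLC37A3 (0.074), SLC38A2 (-0.0012), SLC9A8 (-0.014), SLC39A9 (0.033), SLC16A9 (-0.089) and SLC30A9 (0.011). Array weights turned SLC18A3 (-0.72), SLC25A4 (0.023), SLC2A1 (-0.040), SLC2A14 (0.075), SLC38A2 (-0.0046) and SLC30A9 (0.050). The mean of all probe sets turned SLC30A1 (-0.033), SLC35A4 (-0.00055), SLC39A13 (-0.076), SLC9A8 (-0.025) and SLC30A9 (0.030), median centring SLC25A4 (0.0032) and SLC30A9 (0.011) and quantile normalization SLC30A9 (0.0026). None of these genes passed a test on either side of 0, and the cause was not tested. With 3 arrays a group, a median standard error of 0.13 limits what can be seen.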
